A study of Mus musculus with 4 samples.

Results

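The proximal airway epithelium of the fetal mouse lung was examined at E14.5 (the embryonic day) by droplet single-cell RNA sequencing, in fetuses of mothers with or without the sterol 27-hydroxylase gene Cyp27a1. Members were chosen by measured values: a cell needed 1000 or more detected genes, at least 2 UMIs (counted molecules) of the epithelial adhesion gene Epcam, at least 1 UMI of the lung transcription factor gene Nkx2-1 and at least 1 UMI of Sox2, which encodes the transcription factor of the conducting airways. Of 43351 cells in the series, 205 met this rule: 130 of 4843 E14.5 cells of the null mother and 75 of 4957 E14.5 cells of the heterozygous mother. The same rule without Sox2 gave 472 and 310 epithelial cells.

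All fetuses were labelled Cyp27a1-/-, so they lacked an enzyme of their own that makes 27-hydroxycholesterol. The null mother was Cyp27a1-/- and the heterozygous mother was Cyp27a1+/-. The E14.5 lungs were digested with collagenase and dispase and red blood cells were lysed before the cells were loaded on the 10x platform. Each group was 1 library, and how many fetuses a library pooled was not given. At E18.5, no cell among 16517 of the null mother and 17034 of the heterozygous mother met the rule, and Nkx2-1 had a UMI in only 1 and 3 of them. The E18.5 libraries were therefore not used. Cyp27a1 itself had 77 UMIs in members of the null mother and 64 in those of the heterozygous mother. The label of all fetuses is Cyp27a1-/-, but a 3′ tag can lie outside the deleted part, so this count is no check of the genotype.

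Conducting airways form from the stalks of the branching lung epithelium, behind tips whose cells keep making new branches. Stalk cells hold SOX2 and tip cells hold SOX9 and ID2, and the tip gives rise to the gas-exchanging alveoli. Airway progenitors give rise to secretory (club) cells, ciliated cells, neuroendocrine cells and basal cells, with Notch signalling deciding between secretory and other fates. Ciliated cells are made under GEMC1 (Gmnc), MCIDAS, MYB, the RFX factors and FOXJ1, and copy their centrioles around deuterosomes, which need DEUP1.

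The promoters of 4 ciliated genes whose levels are described further on are shown because each holds a match to the binding motif of RFX factors, which act on genes of motile cilia. They are RefSeq promoters of the build GRCm38.p6, each 300 bases from 250 before to 50 after the start, 5′ to 3′ on the gene's strand. Capitals mark GTTGCC or its reverse complement GGCAAC. Deup1 (chr9:15627797-15628096, minus strand) has it 79 bases before the start, Ccno (chr13:112987552-112987851, plus strand) 219 bases before, Mcidas (chr13:112993618-112993917, plus strand) 195 bases before, and Dynlrb2 (chr8:116504765-116505064, plus strand) 51 bases before.
Deup1: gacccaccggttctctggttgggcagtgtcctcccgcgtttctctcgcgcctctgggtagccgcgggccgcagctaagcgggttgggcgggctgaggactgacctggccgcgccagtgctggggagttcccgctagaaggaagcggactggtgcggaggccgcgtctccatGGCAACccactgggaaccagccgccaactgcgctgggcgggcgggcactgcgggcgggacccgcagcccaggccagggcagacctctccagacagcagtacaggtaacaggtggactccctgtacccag
Ccno: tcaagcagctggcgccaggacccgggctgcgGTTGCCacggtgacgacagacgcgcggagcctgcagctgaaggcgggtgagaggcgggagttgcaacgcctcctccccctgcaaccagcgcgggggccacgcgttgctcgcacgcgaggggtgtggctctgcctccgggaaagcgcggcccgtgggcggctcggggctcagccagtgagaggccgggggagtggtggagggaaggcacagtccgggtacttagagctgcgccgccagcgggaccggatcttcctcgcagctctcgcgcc
Mcidas: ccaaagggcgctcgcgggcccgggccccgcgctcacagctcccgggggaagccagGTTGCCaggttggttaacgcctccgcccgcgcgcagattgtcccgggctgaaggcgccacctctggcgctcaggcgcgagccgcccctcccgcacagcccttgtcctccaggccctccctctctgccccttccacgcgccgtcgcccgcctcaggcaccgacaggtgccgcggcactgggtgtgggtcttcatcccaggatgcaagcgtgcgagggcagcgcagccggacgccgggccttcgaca
Dynlrb2: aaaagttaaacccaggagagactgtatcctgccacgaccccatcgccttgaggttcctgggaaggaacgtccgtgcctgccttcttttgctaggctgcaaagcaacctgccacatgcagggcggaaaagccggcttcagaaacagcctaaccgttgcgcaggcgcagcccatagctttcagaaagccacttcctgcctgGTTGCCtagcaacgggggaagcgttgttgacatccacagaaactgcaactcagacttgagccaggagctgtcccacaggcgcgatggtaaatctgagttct
The letters GTTGCC, searched on both strands, were in 8 of the 18 promoters found for 13 genes of the ciliated list, 1 promoter in each of 8 genes. They were in 4111 of all 32851 promoters in the table, which is 12.5%. The share was 44.4% for the ciliated list, 42.9% of 7 promoters for the erythroid list, and 33.3% for the FGF, LXR target and thyroid lists, and none of the 7 secretory and 11 neuroendocrine promoters held the letters. The longer motif GTNNCCNNGGNAAC, which can overlap the short one, was in 2 of the 18, those of Deup1 and Ccno, and in 1.29% of all promoters. A match describes these letters and not a bound site.

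The members held 2572366 UMIs in the library of the null mother and 1479993 in that of the heterozygous mother, with a median of 19265.5 and 18992 UMIs and of 4619 and 4626 genes per cell. The median mitochondrial share was 2.66% and 2.93%. There were 94 barcodes present in both E14.5 libraries, and 0 members of the null mother and 2 of the heterozygous mother carried one. No doublet caller was used, and 8 and 3 members had 10 or more UMIs summed over markers of mesenchyme, endothelium and immune cells. One member of the null mother held 10321 haemoglobin UMIs of its 30563. All intervals below are 95% intervals (exact Poisson for levels, conditional binomial for ratios, Clopper-Pearson for shares) and cover counting error only.

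Near the edge of the rule, 38 members of the null mother and 12 of the heterozygous mother had a single Sox2 UMI, and 77 and 52 had 3 or more. The gated epithelial cells just outside, with no Sox2 UMI, numbered 342 and 235. The Epcam edge carried few cells, 2 and 2 members with exactly 2 UMIs against 2 and 3 excluded cells with 1. The Nkx2-1 edge had 25 and 14 members with 1 UMI against 14 and 9 excluded cells with none. Median Sox2 was 4 UMIs per member in both libraries.

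The label was checked with genes that the rule did not use. Scgb3a2, a secretoglobin of developing airways, had 2230 UMIs in members of the null mother and 213 in members of the heterozygous mother, or 867 and 144 CPM (UMIs per 1000000 UMIs). In distal cells, defined by the same gate with no Sox2 and at least 1 Sox9 UMI, it had 0.914 and 0.772 CPM. A UMI of Scgb3a2 was found in 37.7% and 18.7% of members, against 1.72% and 1.15% of the cells with neither Epcam nor Nkx2-1, whose median depth was 13957 and 12276 UMIs. Markers of other organs with Nkx2-1 or Sox2 in their epithelium were low. The 6 thyroid markers (Hhex, Pax8, Tg, Tshr, Foxe1 and Slc5a5) summed to 4.66 and 0.676 CPM, with 2 of them at 0 in both libraries. The 6 oesophagus markers summed to 6.61 and 5.41 CPM, of which Trp63, also a basal cell gene, had 2.72 and 4.05 CPM. The 8 immune markers summed to 4.66 and 2.03 CPM, against 874 and 347 CPM in the cells with neither Epcam nor Nkx2-1. The lists for thymus and parathyroid, heart muscle, mesothelium and nerve summed to 5.41 to 26.0 CPM in either library. Cells with neither Epcam nor Nkx2-1 had 18.9 and 22.7 CPM of the thymus and parathyroid list, against 15.2 and 23.6 CPM in members. They had 26.6 and 72.6 CPM of the mesothelium list, against 22.2 and 5.41 CPM in members. For heart muscle they had 318 and 697 CPM and for nerve 21.2 and 21.9 CPM. The oesophagus list was lower in them, at 0.774 and 0.670 CPM.

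Members made up 2.68% (2.25 to 3.18) of all cells of the null mother and 1.51% (1.19 to 1.89) of all cells of the heterozygous mother, a ratio of 1.77 (1.33 to 2.39). Among the cells that could meet the gate on genes, the shares were 4.33% and 2.52%. Within the gated epithelium the shares were closer, at 27.5% (23.6 to 31.8) and 24.2% (19.5 to 29.4), with a ratio of 1.14 (0.85 to 1.53) whose interval includes 1. With 1 library per mother no test between them was possible. Cells with 5000 or more UMIs were also thinned to 5000 and gated again, and shallower cells could not be members. The ratios were then 1.32 (0.827 to 2.11) of all cells, shallower ones included, and 0.885 of the thinned gated epithelium.

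The comparison of proximal with distal epithelium asked which genes separate the airway stalk from the tip. Counts were summed over the 130 and 75 proximal and over the 267 and 191 distal cells of the 2 libraries and tested with edgeR's quasi-likelihood method with the library as a block, with Benjamini-Hochberg adjustment over 11193 genes. The cells were split by Sox2 and Sox9 in the same cells, so the p-values are no independent proof of the classes. The spread behind them had 1 residual degree of freedom per gene and a median of 19.5 prior degrees shared over all genes. They thus rest mostly on that shared spread and say little on whether a gene's difference recurred in both libraries. The gate genes are left out. A gene near 0 in 1 cell group of both libraries passed edgeR's low-count filter through the other group alone. Such a gene could only be called higher in that other group, and the list counts and medians below share this limit. At an adjusted p under 0.05, 1563 genes were higher in proximal cells (14.0% of those tested) and 1841 were lower (16.4%), with a median log2 fold change of 0.02 over all genes. In the library of the null mother 3398 of the 3404 called genes had the sign of the fit, and in that of the heterozygous mother 3380 had it. Without the block the fit called 847 higher and 904 lower.

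**Figure D1:**
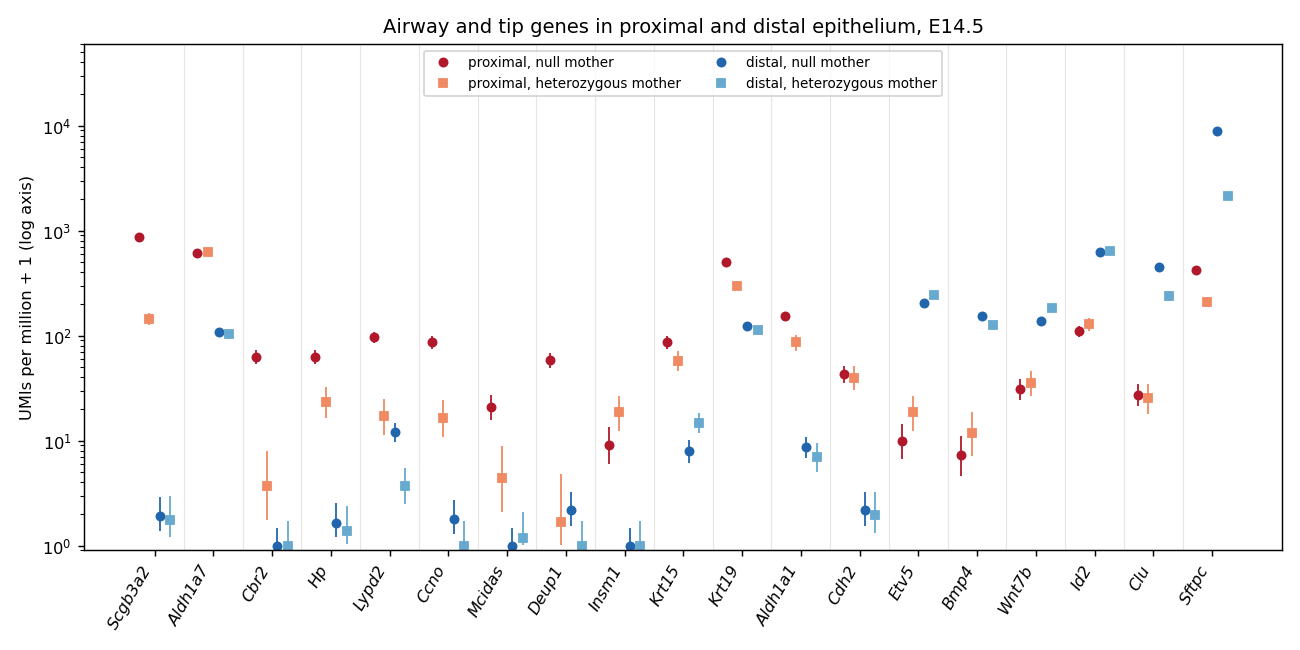
Levels of 19 airway and tip genes in proximal cells (red circles, null mother; orange squares, heterozygous mother) and distal cells (blue circles and light blue squares), as CPM plus 1 on a log axis, with bars for 95% Poisson intervals of each library. Scgb3a2, Cbr2, Hp, Ccno and Insm1 sit within about 1 CPM of 0 in distal cells and above that in proximal cells of both libraries, and Etv5, Bmp4, Id2 and Sftpc sit lower in proximal cells.

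All 6 tested members of the secretory list were higher in proximal cells, with a list median of 4.56 on the log2 scale, also with Cbr2 set at its floor. With DESeq2's Wald test 4 of the 6 passed, and without the library block 5 did. Scgb3a2, Cbr2, Hp and Spdef passed the low-count filter through proximal cells alone and could only come out higher. Without the low-count filter 6 of 7 were higher. Scgb3a2 rose by 9.21 ± 0.20 (log2, SE; adjusted p = 1.7e-18, edgeR). Cbr2, a carbonyl reductase of club cells, had 61.8 and 2.70 CPM in proximal cells and 0 UMIs in distal cells of both libraries, at least 158-fold and at least 4.67-fold higher against a floor of 3 counts per library. Hp, which encodes haptoglobin, had 61.4 and 22.3 CPM in proximal cells against 0.653 and 0.386 CPM in distal cells. Aldh1a7, an aldehyde dehydrogenase, was the broadest of the group: it had a UMI in 97.7% and 96% of members at 612 and 630 CPM, against 107 and 102 CPM in distal cells. Scgb1a1, the secretoglobin of mature club cells, had 0 UMIs in members, as had Scgb3a1, Gabrp, Bpifa1 and Muc5b, which allows up to 1.17 and 2.03 CPM.

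The neuroendocrine list had 4 tested members and all 4 were higher in proximal cells. Insm1, a zinc finger gene of endocrine cells, had 8.16 and 17.6 CPM in proximal cells and 0 UMIs in distal cells, at least 20.8-fold and at least 30.3-fold higher. Cplx2, which encodes a synaptic vesicle regulator, had 63.4 and 62.2 CPM against 10.8 and 11.8 CPM. The list's fitted median was 8.09, and 5.12 with the 3 genes at 0 in distal cells placed at their floor. Those 3, Insm1, Dll3 and Pcsk1, passed the low-count filter through proximal cells alone and could only come out higher. Without the filter 12 neuroendocrine genes were tested, 5 higher and 0 lower. With DESeq2's Wald test 1 of the 4 passed. Hormone and granule genes were scarce: Calca, Chga, Grp and Resp18 had 0 to 6 UMIs in a library.

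In the ciliated list 5 of 6 tested members were higher, with a median of 1.95. Mcidas had 19.8 and 3.38 CPM in proximal cells against 0 and 0.193 CPM in distal cells, and Ccno, a cyclin-like gene needed for centriole copying, had 85.1 and 15.5 CPM against 0.783 and 0 CPM. Myb rose by 2.33 ± 0.36 (edgeR adjusted p = 3.9e-05), mostly in the library of the null mother. There it had 39.7 CPM in proximal against 4.31 CPM in distal cells, and with the heterozygous mother 6.76 against 4.82 CPM. Tekt1, a tektin of the axoneme, was called higher with a fitted 1.57 (adjusted p = 0.011, edgeR), but had 4.05 CPM in proximal against 8.49 CPM in distal cells of the heterozygous mother, a log2 ratio of -0.40 in that library alone. With DESeq2's Wald test 2 of the 6 ciliated genes passed, and without the library block 3 did. Ccno and Mcidas passed the low-count filter through proximal cells alone and could only come out higher. Without the low-count filter 12 of 15 were higher. In the basal list Trp63 rose by 4.05 on 7 and 6 UMIs and Krt15 by 2.80, while Pdpn fell by 1.21 (edgeR, all past the threshold). Krt5 had 9 and 0 UMIs and Krt14 had 0 in proximal cells.

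Of 11 airway transcription factors tested, 8 were higher and 3 lower, with a median of 0.99. With DESeq2's Wald test 5 were higher and 3 lower, and without the library block 6 and 3. Sox21, a SOXB2 gene of the developing airway, rose by 6.41 ± 0.58 (edgeR adjusted p = 2.3e-08), with 16.7 and 16.9 CPM in proximal cells and 0 and 0.386 CPM in distal cells. Grhl1, Ehf, Klf5, Foxa1, Elf3, Foxa2 and Grhl2 rose by 2.72 down to 0.61. The rise of Ehf was mostly in the library of the null mother, at 20.2 CPM in proximal against 4.31 CPM in distal cells. In that of the heterozygous mother it had 6.08 against 5.79 CPM. The Iroquois genes went the other way: Irx2, Irx3 and Irx5 fell by 1.22, 0.91 and 0.80. Among genes named by the size of their change, Cdh2 (N-cadherin) had 42.0 and 38.5 CPM in proximal against 1.18 and 0.965 CPM in distal cells. Adam28, Mycl, Pclo, Gfra1, Id4 and Aldh1a1 also ranked in the top 10, as did Scgb3a2 and Hp.

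Tip and alveolar genes were lower in proximal cells. In the distal tip list 10 of 12 tested members fell and 0 rose, with a median of -2.10. With DESeq2's Wald test 7 of the 12 fell. Etv5, an FGF-induced ETS gene, had 8.94 and 17.6 CPM in proximal cells against 203 and 245 CPM in distal cells, and Bmp4, a BMP ligand of the tip, had 6.22 and 10.8 CPM against 153 and 125 CPM. Id2 had 109 and 128 CPM against 629 and 635 CPM. Shh, the hedgehog ligand made by the whole lung epithelium, had 55.2 and 66.9 CPM against 52.6 and 63.3 CPM and did not pass the test (adjusted p = 0.92, edgeR). All 8 surfactant and AT2 genes tested fell. Sftpa1 and Lamp3 passed the low-count filter through distal cells alone and could only come out lower. Without that filter 8 of 11 fell, and with DESeq2's Wald test 7 of the 8 did. Sftpc, encoding surfactant protein C, had 422 and 208 CPM against 8829 and 2144 CPM, but cells with neither Epcam nor Nkx2-1 also held 30.1 and 7.31 CPM of it.

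**Figure D2:**
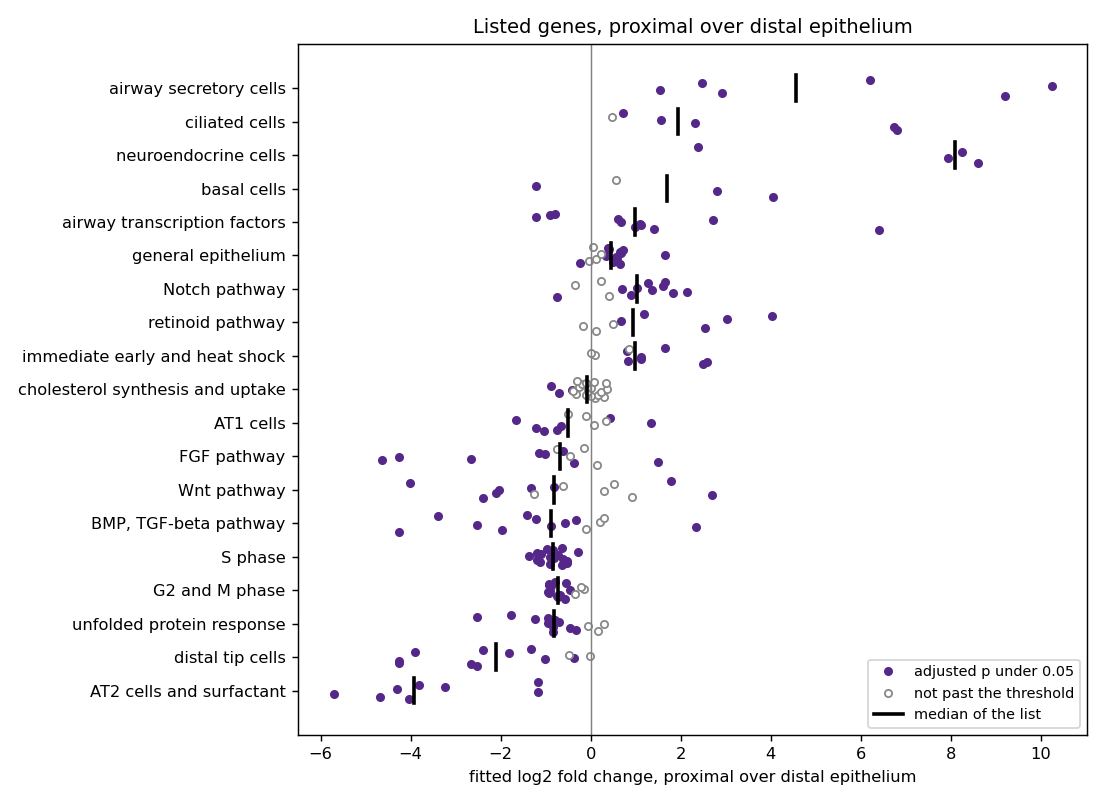
Fitted log2 fold change of every tested gene of 19 lists, proximal over distal epithelium, with filled points past the adjusted threshold, open points not past it and a black bar at the list median. The secretory, ciliated and neuroendocrine lists lie to the right with medians of 4.56, 1.95 and 8.09, and the tip and AT2 lists lie to the left with medians of -2.10 and -3.92. Of the 4 neuroendocrine genes, 3 had 0 UMIs in distal cells.

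Signalling genes differed by pathway. In the Notch list 9 of 13 tested genes were higher and 1 lower (median 1.03). The ligand gene Jag1 rose by 2.15, Dll4 by 1.82, the fringe gene Mfng by 1.64 and the target Hey1 by 1.60. In the retinoid list 5 of 8 were higher and 0 lower: Aldh1a1, which makes retinoic acid, had 151 and 85.1 CPM against 7.70 and 5.98 CPM in distal cells, the carrier Rbp4 rose by 3.03 and the receptor gene Rarb by 2.54. The FGF, Wnt and BMP lists went the other way, with 7 of 12, 6 of 13 and 9 of 13 lower and 1, 2 and 1 higher. The exceptions in those lists were Fgfr3, Wnt4 with Kremen1, and the receptor gene Bmpr1b, which rose by 2.34. With DESeq2's Wald test 1 Notch gene and 3 retinoid genes were higher, and 3 FGF, 2 Wnt and 5 BMP genes were lower. Without the block 3 Notch and 3 retinoid genes were higher, and 4 FGF, 6 Wnt and 6 BMP genes were lower. In the hedgehog list Hhip, which binds hedgehog ligands, rose by 2.33 and no other gene passed.

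Cell cycle and protein folding genes were lower in proximal cells. All 17 S phase genes tested were lower (median -0.84), as were 13 of 16 G2 and M phase genes (median -0.73). With DESeq2's Wald test 12 S phase and 10 G2 and M phase genes were lower. Rrm2, a subunit of ribonucleotide reductase, fell by 1.37 and Ube2c by 0.92. In the unfolded protein response list 11 of 14 fell and 0 rose, with Asns, an amino acid synthesis gene, down by 1.76. Immediate early genes rose, 7 of 10, led by Fosb and Fos with 2.59 and 2.50; these genes also respond to tissue dissociation, whose part was not tested. In the cholesterol synthesis and uptake list 3 of 22 fell and 0 rose, with a median of -0.09. They were Ebp, Fdps and Cyp51. Of the LXR targets 2 rose and 2 fell of 7, of the oxysterol enzymes 1 rose of 3, and of the glucocorticoid targets 1 rose of 10. In the glycolysis list 2 rose and 5 fell of 13, in the AT1 list 2 rose and 5 fell of 11, and in the general epithelial list 11 rose and 1 fell of 16, with Krt19, a simple epithelial keratin, up by 1.66. With DESeq2's Wald test 3 rose in the general epithelial list, 0 rose and 4 fell in the AT1 list, 7 fell in the unfolded protein response list and 1 fell in the cholesterol list. Distal cells were deeper than proximal ones, with a median of 28431 and 27301 UMIs per cell, and thinned to 10000 UMIs the fit called 1024 higher and 1190 lower.

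Some members also held RNA of tip genes. A Sox9 UMI was found in 30.8% (23.0 to 39.5) of members of the null mother and 34.7% (24.0 to 46.5) of those of the heterozygous mother. In cells with neither Epcam nor Nkx2-1, at a median depth of 13957 and 12276 UMIs, the share was 4.70% and 8.70%. In the 40 and 26 members with Sox9, Sftpc had 902 and 396 CPM, against 173 and 75.9 CPM in the 90 and 49 members without. Bmp4 and Etv5 were higher with Sox9 too, with 19.4 and 31.1 CPM of Etv5 against 3.54 and 8.05 CPM. Sox21 had 1.14 and 9.83 CPM in members with Sox9, against 24.8 and 21.9 CPM in those without. Scgb3a2 was in both sets, at 796 and 98.3 CPM with Sox9 and 903 and 176 CPM without. The fullest Scgb3a2 cell of the null mother was a member with 2 Sox9 UMIs. It held 514 UMIs summed over Scgb3a2, Cyp2f2, Cbr2 and Hp, the most of any member. The null-mother level with Sox9 thus rested largely on 1 cell. Sox9 and Sox2 in 1 droplet can come from 1 cell or from 2, which was not tested.

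Between the mothers, the question was whether airway cells of Cyp27a1-/- fetuses differ with the mother's genotype. A gene counted as measured if the mother with the higher level had 50 or more UMIs of it, and as called at a ratio of 1.5 or more after 10 CPM were added to both. Of 5610 measured genes, 196 were higher by this rule with the null mother (3.49%) and 83 were lower (1.48%), and the median log2 ratio was 0.01. The minimum was in UMIs, and members held 2572366 UMIs with the null mother and 1479993 with the heterozygous mother. A gene higher with the null mother was thus measured at a lower CPM, so 196 and 83 are not on equal terms. The counts and medians of the lists below share this limit, since a gene scarce in 1 library was measured only if it was high in the other. These counts have no test behind them, since each mother is 1 library. Differences between litters, fetal stages and preparations cannot be told apart from the mother's genotype.

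Secretory genes were higher with the null mother. Of 6 measured secretory genes 5 passed 1.5-fold and 0 were lower, with a median log2 ratio of 2.07. Scgb3a2 had 6.02 (5.23 to 6.97) times the CPM of the heterozygous mother, and the fullest cell held 474 of its 2230 UMIs in the null library and 47 of 213 in the heterozygous library. Cyp2f2, a club cell cytochrome, had 94 UMIs in 23 members against 1 UMI, a ratio of 54.1 (9.47 to 2159). Lypd2 had 95.6 and 16.2 CPM, and was found in 43.1% and 10.7% of members. It was higher with the null mother in distal cells too, at 11.0 and 2.70 CPM, a ratio of 4.06 (2.29 to 7.74). Aldh1a7, the broad airway gene, had 612 and 630 CPM, a ratio of 0.972 (0.896 to 1.06). Distal cells had 0 UMIs of Cyp2f2 and Cbr2 in both libraries, and Scgb3a2 in cells with neither Epcam nor Nkx2-1 was 1.46 and 0.852 CPM.

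Ciliated genes were also higher with the null mother, and rested on few cells. All 8 measured genes passed 1.5-fold, with a median log2 ratio of 1.77 (1.76 with Dynlrb2 at its floor). No ciliated gene reached the minimum of UMIs with the heterozygous mother, so all 8 were measured through the null library alone. The minimum thus favoured genes higher there, and the count of 8 and the median are no separate evidence. The whole list, with no minimum, summed to 391 and 65.5 CPM. Deup1 had 148 UMIs in 9 members of the null mother and 1 UMI in 1 member of the heterozygous mother. Foxj1, the main transcription factor gene of motile cilia, had 80 UMIs in 13 members against 1 UMI, and Dynlrb2, a dynein light chain gene, had 88 UMIs in 5 members against 0, at least 16.9-fold higher. Rsph1 and Cfap126, genes of the axoneme, had 60 and 48 UMIs with the null mother and 1 and 1 with the heterozygous mother. The upstream genes were spread over more cells: Ccno had a UMI in 45.4% (36.6 to 54.3) and 22.7% (13.8 to 33.8) of members, Myb in 21.5% and 13.3%, and Mcidas in 16.9% and 6.67%. Rfx3 and Tppp3 fell short of the minimum and were not among the measured genes. Rfx3 had 14.4 and 16.9 CPM and Tppp3 10.9 and 14.9 CPM, with ratios whose intervals include 1.

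Of the neuroendocrine genes, Insm1 and Dll3 were lower with the null mother, on few counts. Insm1 had 21 UMIs in members of the null mother and 26 in those of the heterozygous mother, a ratio of 0.465 (0.249 to 0.859) in CPM. Dll3, a Notch ligand-like gene of these cells, had 11 and 25 UMIs, a ratio of 0.253 (0.112 to 0.533). Only Cplx2 reached 50 UMIs, and it had 63.4 and 62.2 CPM, a ratio of 1.02 (0.785 to 1.33). In the Notch list Hes1, a Notch target, was higher, with 135 and 78.4 CPM, and was the only 1 of 4 measured genes past 1.5-fold.

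**Figure D3:**
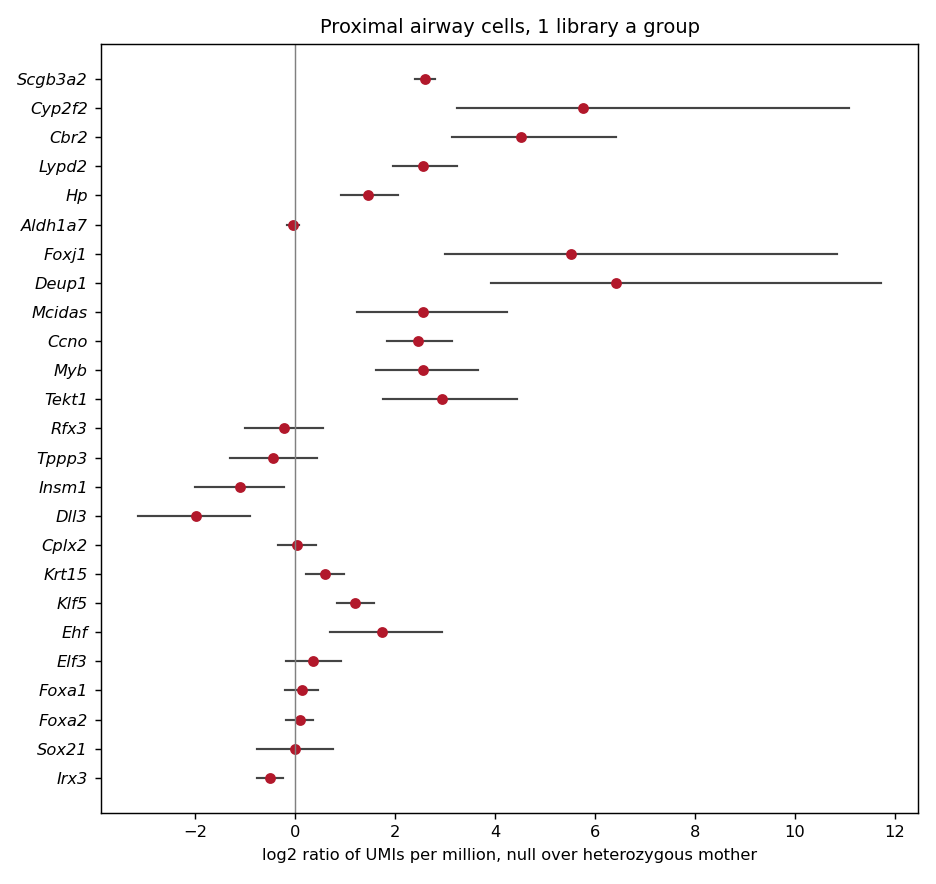
Log2 ratio of CPM in proximal airway cells, null over heterozygous mother, with no pseudocount, for 25 genes of the secretory, ciliated, neuroendocrine, basal and transcription factor lists; bars are 95% conditional binomial intervals of the counts. Secretory and ciliated genes from Scgb3a2 to Hp and Foxj1 to Tekt1 lie right of 0, Insm1 and Dll3 lie left of it, and Aldh1a7, Cplx2 and Sox21 lie at about 0.

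These differences were also read as numbers of cells. Members were grouped by summed UMIs of Scgb3a2, Cyp2f2, Cbr2 and Hp (secretory set), of Foxj1, Deup1, Dynlrb2, Rsph1, Ccdc113 and Cfap126 (ciliated set) and of Insm1, Dll3 and Pcsk1 (neuroendocrine set). The sets and the minimum of 3 UMIs were chosen after the values were seen, so each group is a range and not a type. The secretory set reached 3 UMIs in 48 of 130 members of the null mother, 36.9% (28.6 to 45.8), and in 12 of 75 of the heterozygous mother, 16% (8.55 to 26.3). The ciliated set did so in 10 members, 7.69% (3.75 to 13.7), against 0 of 75, for which a floor of 3 counts allows up to 4% and the Clopper-Pearson limit is 4.80%. The neuroendocrine set did so in 5 members, 3.85% (1.26 to 8.75), against 6, 8% (2.99 to 16.6). These intervals treat cells as independent and cover counting error only, so they are no test between the mothers. Scgb3a2, Cbr2, Cyp2f2, Deup1, Dynlrb2 and Foxj1 were among the 10 genes most strongly higher with the null mother. The secretory and ciliated shares therefore restate that ranking. Among the 2215 and 2344 cells with neither Epcam nor Nkx2-1, the secretory set reached 3 UMIs in 21 and 5.

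Cells near the minimum and cells in more than 1 set were counted. With 1 or 2 UMIs there were 25 and 10 members for the secretory set, 11 and 3 for the ciliated set and 1 and 4 for the neuroendocrine set. Of the 10 members in the ciliated set 7 were also in the secretory set. The secretory and neuroendocrine sets shared 1 member of the null mother and 0 of the heterozygous mother, and the ciliated and neuroendocrine sets 1 and 0. Over the cells of the secretory set the median sum of neuroendocrine and of ciliated genes was 0 UMIs in both libraries, and over the 10 cells of the ciliated set the median secretory sum was 5 UMIs. In distal cells the secretory and neuroendocrine sets reached 3 UMIs in 0 cells, and the ciliated set in 1 and 0. The 10 ciliated-set cells were 5 female and 5 male by Xist and Y-linked UMIs.

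**Figure D4:**
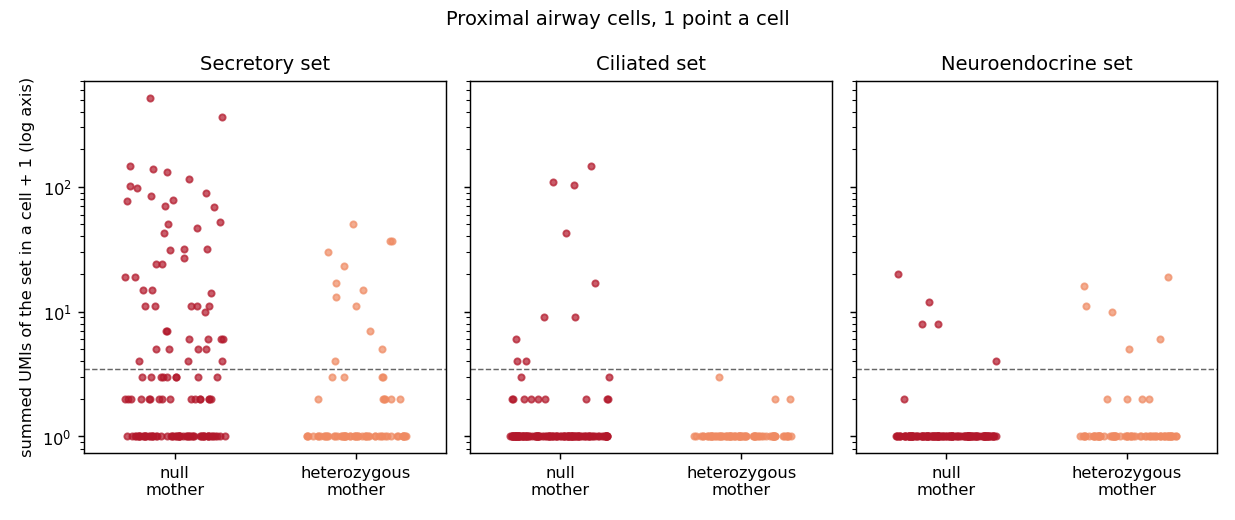
Summed UMIs plus 1 of the secretory, ciliated and neuroendocrine sets in every proximal airway cell on a log axis, 130 cells of the null mother on the left of each panel and 75 of the heterozygous mother on the right; the dashed line lies between 2 and 3 UMIs. The highest sums are 514 and 49 UMIs in the secretory panel, 146 and 2 in the ciliated panel and 19 and 18 in the neuroendocrine panel.

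In the neuroendocrine set, Hes6, which works against Hes1, had 541 and 692 CPM, above the 146 and 154 CPM of all members. The members in none of the sets were 76 of 130 (58.5%) and 57 of 75 (76%). Ager, a gene of AT1 cells, had 141 and 45.6 CPM there, 17.2 and 0 CPM in the secretory set and 0 UMIs in the neuroendocrine set of either library. Clic3, also on the AT1 list, had 119 and 12.5 CPM there and 83.7 and 3.92 CPM in the secretory set.

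AT1 genes were higher with the null mother in airway cells, where the list summed to 1003 and 523 CPM, and also in distal cells, where it summed to 1358 and 785 CPM. Of 9 measured genes 6 passed 1.5-fold and 0 were lower, with a median log2 ratio of 0.94. Clic3, a chloride channel gene, had 101 CPM in 71 of 130 members and 10.1 CPM in 11 of 75 members, a ratio of 9.97 (5.94 to 18.1). In distal cells Clic3 had 68.9 and 11.0 CPM. Hopx had 49.0 and 13.5 CPM, Clic5 24.9 and 4.73 CPM, and Ager 90.6 and 34.5 CPM in proximal cells. In distal cells Hopx had 65.6 and 33.4 CPM, Clic5 8.88 and 1.93 CPM, and Ager 166 and 73.7 CPM. Sftpc, an AT2 gene, had 422 and 208 CPM, with 26 of 40 and 12 of 26 Sox9-holding members positive. In male cells alone its log2 ratio was -2.57 and in female cells alone 2.92.

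Other groups showed smaller differences. Of 9 measured airway transcription factors Klf5, with 119 and 52.0 CPM, and Ehf, with 20.2 and 6.08 CPM, were higher and the median was 0.08. Foxa2 had 129 and 121 CPM. In the basal list Krt17 passed 1.5-fold with 102 and 3 UMIs, but 68 of the 102 were in 1 cell. None of 7 measured tip genes, 16 S phase genes, 16 cholesterol genes and 12 glycolysis genes passed 1.5-fold in either direction. The cholesterol list had a median of 0.12, with 12 genes above 0 and 4 below. In the retinoid list 2 of 6 measured genes passed it, both higher, and Aldh1a1 had 151 and 85.1 CPM. Hspa5, the chaperone of the unfolded protein response, had 537 and 796 CPM, and Asns was the only 1 of 11 in its list past 1.5-fold, lower with the null mother. In the G2 and M phase list 1 of 16 was past it, lower with the null mother, and none of the 5 FGF, 3 hedgehog and 5 glucocorticoid genes measured was. Junb and Egr1 were the 2 of 7 immediate early genes past it, both higher.

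The genes most strongly lower with the null mother were of other kinds. Tagln and Acta2, smooth muscle genes, led with Thbs1, but 58 of the 62 Tagln UMIs of the heterozygous mother were in 1 cell, as were 36 of its 70 Acta2 UMIs. The log2 ratio of Tagln was -2.22 with all cells and -0.24 without its fullest cell, and that of Acta2 was -1.23 and -0.56. Linker histone genes followed: Hist1h1b had 337 and 792 CPM, Hist1h1a 32.3 and 81.1 CPM and Hist1h1e 149 and 301 CPM. In female cells alone the log2 ratio of Hist1h1b was -0.11, and in male cells alone it was -2.98. Ntm, Rcor2, Ly6h and Fscn1 completed the 10, at log2 ratios from -1.21 to -0.95.

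RNA of other cells differed between the libraries as well. All 4 measured mesenchymal markers passed 1.5-fold, and the list of 9 summed to 196 and 70.9 CPM in members, against 3764 and 3670 CPM in the cells with neither Epcam nor Nkx2-1. Dcn made up 73.9 and 16.2 CPM of it, with 60 of 190 UMIs of the null mother in 1 cell. All 4 measured erythroid genes were higher, and the list summed to 4389 and 225 CPM with the haemoglobin-rich cell included. In the proximal and distal comparison 4 of 6 erythroid genes rose and 2 fell, and 3 rose and 0 fell without that cell. The endothelial list summed to 21.0 and 6.76 CPM. The part of such RNA in the differences above was not tested. Without the members with 10 or more UMIs of other cell types, the log2 ratio of Krt17 was 1.01, and 187 genes were higher and 92 lower.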

How the data were processed

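Single-cell counts were deposited by the authors as 10x matrices of whole UMIs per gene and cell. Reads were processed with Cell Ranger 3.0.0 and Seurat 4.3.0 and the build mm10, per the submitters' processing notes; the role of each step is not given in the sources used here. Of the 4 libraries the 2 of E14.5 were used. Cells were chosen from the deposited counts by the gate, counts were summed per library and cell group, and levels are UMIs per 1000000 (CPM). Proximal and distal sums were tested with edgeR 4.0.16 (R 4.3.3; quasi-likelihood, TMM scaling, default low-count filter, library as a block, 1 residual degree of freedom). The 2 cell groups of a library come from the same lungs, so the library pairs them. Null and heterozygous mothers, with 1 library each, were compared without a test, as a log2 ratio after adding 10 CPM. The fit was tested on simulated data. Alternatives included DESeq2 1.42.0, other minimums and pseudocounts, thinned cells, 1 sex, and removal of cells; those removing haemoglobin-rich, shared-barcode, ciliated-gene or fullest cells were chosen after seeing the data. The members and gene lists were chosen with earlier results of these data known. Genes named are the 10 farthest in each direction of each comparison, the secretory, ciliated, neuroendocrine, basal, transcription factor and tip lists, and up to 4 farthest members of other lists. A gene outside this rule, such as Hes6, was named after its values were seen. Some listed genes are not reported here and were left out of their lists and sets. Python 3.11.15 with scipy 1.17.1 gave the intervals. Promoters come from RefSeq (GRCm38.p6).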

Additional observations from a re-analysis of the deposited data

How the results depend on the processing

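DESeq2's Wald test called 362 genes higher and 473 lower in proximal cells. Without the library block, which pairs proximal and distal cells of the same lungs, 847 were higher and 904 lower. Cells thinned to 10000 UMIs gave 1024 and 1190. Among 59 named genes, 551 values kept direction and call, 29 lost the call, 1 gained it and 1 reversed. The reversed value was Tekt1 at -0.40 in the library of the heterozygous mother alone. The 59 genes came from the ranking and from the secretory, ciliated, neuroendocrine, basal, transcription factor and tip lists. Genes named from other lists, such as Mfng, were outside this check. Between the mothers, a pseudocount of 1 CPM gave 348 genes higher and 153 lower, a minimum of 20 UMIs 317 and 158, a minimum of 200 UMIs 53 and 18, and male cells alone 187 lower. Thinned to 5000 UMIs, the ratio of airway shares was 1.32 of all cells. It was 1.11 of the cells with 5000 or more UMIs, 2583 of the null and 2232 of the heterozygous mother. The share of null-mother members with a UMI was 25.8% for Scgb3a2, 17.7% for Ccno and 23.4% for Krt15 at 5000 UMIs, and 29.8% for Ccno at 10000; for the heterozygous mother it was 8.45% for Ccno and 11.3% for Krt15 at 5000. Log2 ratios reversed for Deup1 and Rsph1 without ciliated-gene cells, to -0.034 each, a value near 0. Those cells were left out by the ciliated set, which holds both genes, so losing their difference was fixed in advance. Other reversals were Rsph1 in female cells (-0.082), Tagln in cells without Sox9 (0.0039) and Acta2 in male cells (0.33). Sftpc in male cells (-2.57) and Id1 with 2 or more Sox2 UMIs (-0.036) and in male cells (-0.33) also reversed. The causes were not tested. With 75 heterozygous-mother members, a share under 4% and a level under 2.03 CPM cannot be told from 0.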

Other observations

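Epithelial cells with neither a Sox2 nor a Sox9 UMI numbered 75 with the null mother and 44 with the heterozygous mother. They were shallower than airway members, with a median of 16093 and 4849.5 UMIs, and their median mitochondrial share was 2.66% and 9.69%. Scgb3a2 had 12.4 and 2.23 CPM in them, Aldh1a7 240 and 111 CPM, Ager 294 and 55.7 CPM, Etv5 101 and 216 CPM and Sftpc 3847 and 1996 CPM. The differences in depth and mitochondrial share lie beside these values and their part was not tested.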
